A study of Drosophila melanogaster with 164 samples.

Results

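Aminoacyl tRNA synthetases join each amino acid to its transfer RNA and so supply the ribosome with charged tRNA. The genes described here are all those whose symbol is an amino acid abbreviation followed by RS, with the ending -m for the enzyme that works in mitochondria. Of the 7414 genes in the count table, 32 met this rule, and they are all 32 genes that the Ensembl BDGP6 annotation holds under it. They comprise 17 cytoplasmic genes, from AlaRS to ValRS, and 15 mitochondrial genes, from AlaRS-m to ValRS-m. Both forms were present for 12 amino acids. GlnRS, GlyRS, HisRS, LysRS and ThrRS had no partner ending in -m, and GluRS-m, PheRS-m and ProRS-m had no cytoplasmic partner with a name of this form. Genes without the ending -m are called cytoplasmic here by name only. Whether any of them also makes a mitochondrial enzyme was not examined. The genes GluProRS, alpha-PheRS and beta-PheRS, which charge the remaining cytoplasmic tRNAs, fall outside the naming rule and are described with the pathway.

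RNA came from whole adults and from whole third-instar larvae of 41 lines of the Drosophila Genetic Reference Panel (DGRP), which are inbred, derive from an outbred population and showed no inversion. Flies were reared at 25°C with 12 h of light, and no line was treated or carried a transgene. Adults were collected over 48 h after the first had emerged and were matured for 4 days, and larvae that were still feeding were taken once the first larva of their vial had begun to wander. Each line and stage had 2 biological replicates, each a pool of 2 to 31 animals with a median of 17 adults or 20 larvae. Larvae were not sexed, and the labels give no sex for adults, so the proportion of males in a sample is unknown. Totals over the table ranged from 2748964 to 20421026 counts in the 82 adult libraries, with a median of 8670311, and from 2407244 to 26429404 counts in the 80 larval libraries used, with a median of 10533564. The lowest count of any synthetase gene in any library was 13.

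Some libraries need to be named before the results. Identical counts were found under 2 larval labels, DGRP787 replicate 1 and DGRP491 replicate 2. Both were left out, so larvae of these lines rest on 1 library each. Over 308 genes that differ strongly between lines in adults, 76 of 80 larval libraries resembled adults of their labelled line the most. The larval library labelled DGRP897 replicate 2 was most like adults of DGRP882, that labelled DGRP911 replicate 2 like DGRP897, that labelled DGRP882 replicate 2 like DGRP911, and that labelled DGRP367 replicate 1 like DGRP804. They were kept under their labels. Without the DGRP882, DGRP897 and DGRP911 libraries all 32 stage calls held, while GlnRS lost and LeuRS-m gained a call for differences between larval lines, and SerRS-m gained one between adult lines. The adults were sequenced in 7 pools and the larvae in 12 others, so stage and sequencing pool cannot be told apart.

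Synthetases fall into 2 structural classes. In animals several cytoplasmic enzymes are held in a multisynthetase complex by the scaffold proteins AIMP1, AIMP2 and AIMP3. The mitochondrial enzymes are encoded in the nucleus, made in the cytoplasm and imported. There they charge the tRNAs that read the few messages of the mitochondrial genome. Uncharged cytoplasmic tRNA activates the kinase Gcn2, which phosphorylates the initiation factor eIF2 and raises translation of the transcription factor crc, the fly ATF4.

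Cytoplasmic synthetase transcripts were lower in adults than in larvae for nearly the whole set. The edgeR quasi-likelihood test with line as a block, with p-values adjusted by the Benjamini-Hochberg method over all 7414 genes and a threshold of 0.05, called 16 of 17 cytoplasmic genes lower in adults and 1 higher. Of the 15 mitochondrial genes, 10 were lower in adults and 5 were higher. Taken over the 32 genes, 26 were lower and 6 higher, where 47.8% of all genes tested were lower in adults and 44.9% were higher. The median log2 fold change of adults over larvae was -0.96 for the cytoplasmic genes and -0.43 for the mitochondrial genes, beside -0.03 for all genes. Levels are given as CPM, the usual depth-scaled unit of read counts, with library totals scaled by TMM factors.

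AspRS, which charges aspartate tRNA, had the lowest fold change of the set. It had 71.4, 102 and 251 CPM as the lowest, median and highest adult library, against 216, 303 and 585 CPM in larvae. A single adult library, DGRP357 replicate 2, reached into the larval range. The log2 fold change was -1.56 (SE 0.04, adjusted p 3.0e-72), and AspRS was lower in adults in 41 of 41 lines. AspRS lies at chr2R:12877004-12883168 on the plus strand. Other genes overlap 69.5% of its exon length on the opposite strand and 6.8% on the same strand. The strand setting of the authors' counting is not given in the sources used here, so reads of these neighbours cannot be told from reads of AspRS.

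Of the cytoplasmic genes, 6 were at least 2-fold lower in adults by the edgeR test against that fold, where 11.7% of all genes were. LysRS, which charges lysine tRNA, had 33.3, 43.7 and 81.8 CPM in adults, against 67.2, 110 and 150 CPM in larvae (log2 fold change -1.32, SE 0.03, adjusted p 2.6e-74). SerRS, the serine enzyme, had 37.1, 67.4 and 92.7 CPM in adults, against 92.3, 159 and 294 CPM in larvae (log2 fold change -1.23, SE 0.04, adjusted p 8.5e-57). For both genes 1 adult library lay within the larval range. ThrRS, the threonine enzyme, had 78.0, 99.3 and 145 CPM in adults, against 150, 223 and 493 CPM in larvae (log2 fold change -1.16, SE 0.03, adjusted p 4.7e-68). AsnRS, the asparagine enzyme, had 57.6, 81.0 and 113 CPM in adults, against 119, 179 and 315 CPM in larvae (log2 fold change -1.13, SE 0.03, adjusted p 1.8e-63). For ThrRS and AsnRS the highest adult library lay below the lowest larval one. ArgRS completed this group with a log2 fold change of -1.10 (SE 0.03, adjusted p 1.1e-67).

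The rest of the cytoplasmic set changed less. GlyRS (log2 fold change -1.04), CysRS (-0.99), AlaRS (-0.96), HisRS (-0.94) and TyrRS (-0.90) were lower in adults in 41 of 41 lines without passing the test for a 2-fold change. Counting these, 16 synthetase genes were lower in adults in every line, 11 of them cytoplasmic and 5 mitochondrial, where 21.7% of all genes were. ValRS (-0.58), IleRS (-0.57), GlnRS (-0.52) and TrpRS (-0.46) were lower by smaller amounts, and in each of them at most 2 lines went the other way. LeuRS, the leucine enzyme, was close to equal at the 2 stages. It had 55.2, 78.4 and 143 CPM in adults and 54.9, 91.2 and 153 CPM in larvae, and its log2 fold change of -0.17 (SE 0.04, adjusted p 2.2e-05) was against the direction of 6 lines. MetRS, which charges methionine tRNA for both initiation and elongation, was the cytoplasmic gene that was higher in adults. It had 69.1, 97.7 and 122 CPM in adults, against 46.4, 71.8 and 121 CPM in larvae (log2 fold change 0.37, SE 0.03, adjusted p 2.2e-21), and it was higher in 40 of 41 lines.

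Within the cytoplasmic set the genes can be read by class. All 8 of class II (AlaRS, AsnRS, AspRS, GlyRS, HisRS, LysRS, SerRS and ThrRS) were lower in adults in every line and 5 were at least 2-fold lower, and their median log2 fold change was -1.15. Of the 9 class I genes 8 were lower, with a median of -0.57, and 1 was at least 2-fold lower, which was ArgRS. The 7 genes whose enzymes belong to the multisynthetase complex in animals (ArgRS, AspRS, GlnRS, IleRS, LeuRS, LysRS and MetRS) had a median of -0.57, and the other 10 a median of -0.98. These medians are descriptions, and the differences between these lists were not tested.

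**Figure D1:**
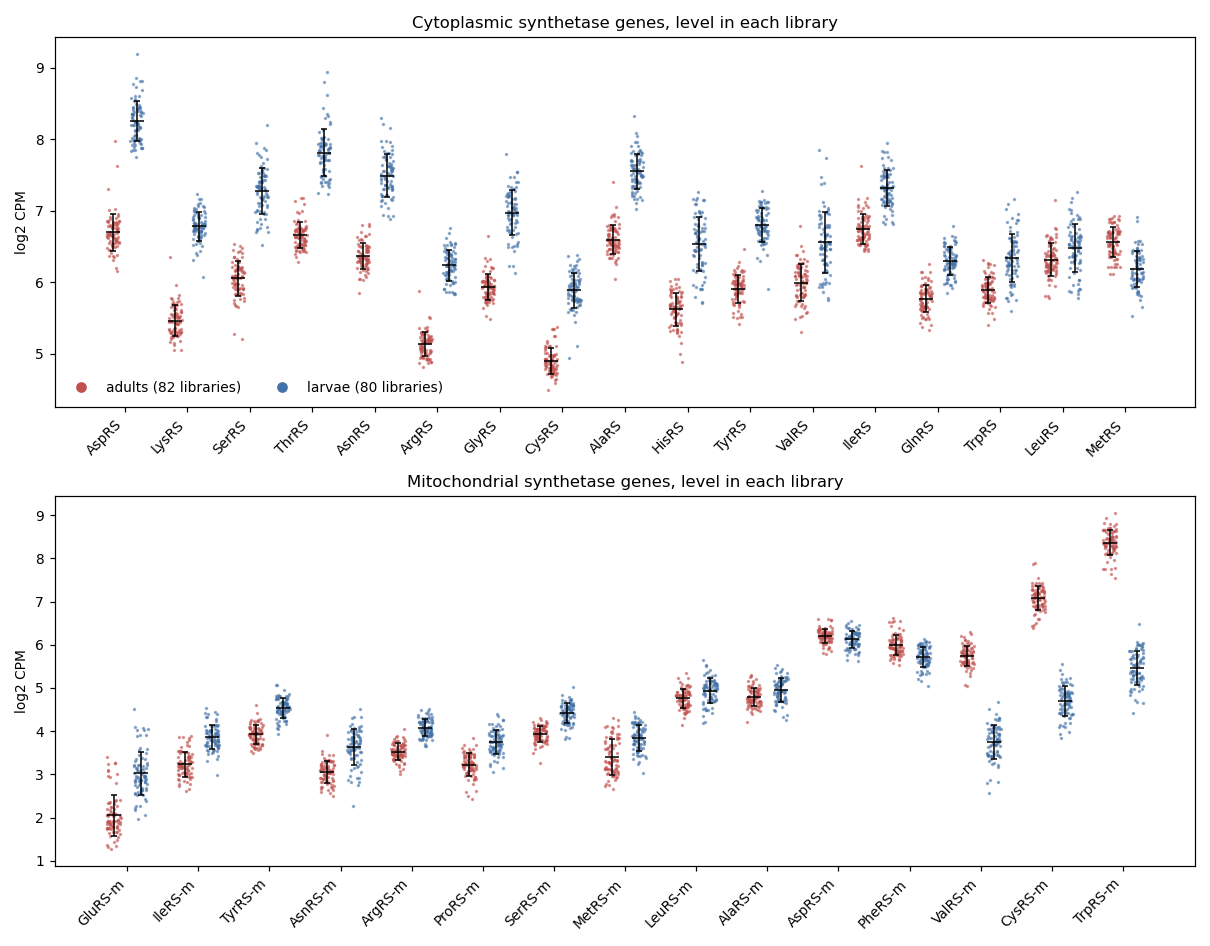
Level of each synthetase gene in each library (log2 CPM, vertical axis), with the 17 cytoplasmic genes above and the 15 mitochondrial genes below, ordered by fold change. Points are libraries, 82 of adults and 80 of larvae, and black bars give the mean and SD. Adults lie below larvae for most genes, and TrpRS-m, CysRS-m and ValRS-m lie far above them.

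The mitochondrial set moved in both directions. TrpRS-m, CysRS-m and ValRS-m, the mitochondrial enzymes for tryptophan, cysteine and valine, were at least 2-fold higher in adults, where 15.0% of all genes were. No other synthetase gene was, and no mitochondrial gene was at least 2-fold lower. These 3 genes, with ThrRS and AsnRS, were the 5 of 32 whose adult and larval libraries did not overlap, where 11.1% of all genes had no overlap.

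TrpRS-m had 187, 331 and 529 CPM as the lowest, median and highest adult library, against 21.5, 43.9 and 89.7 CPM in larvae. Every adult library lay above every larval one, and the log2 fold change was 2.88 (SE 0.06, adjusted p 1.3e-84). CysRS-m had 83.7, 136 and 239 CPM in adults, against 14.3, 26.7 and 47.3 CPM in larvae (log2 fold change 2.36, SE 0.05, adjusted p 3.5e-85). ValRS-m had 32.9, 53.6 and 78.0 CPM in adults, against 5.95, 13.8 and 25.5 CPM in larvae (log2 fold change 1.97, SE 0.05, adjusted p 1.8e-72). All 3 were higher in adults in 41 of 41 lines, and the smallest difference of any line was 1.37 on the log2 scale, for ValRS-m in DGRP491. Taking both directions, 3305 of all 7414 genes differed the same way in every line. TrpRS-m lies at chr3L:17849727-17852453 and ValRS-m at chr3L:8961274-8964769. CysRS-m lies at chr2R:14159096-14161262, and 14.3% of its exon length is overlapped on the opposite strand.

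Per kilobase of exon, TrpRS-m had the highest level of the synthetase genes in adults. Its level was 136 ± 26.1 CPM per kilobase in adults (SD, n = 82), the highest of the 32 genes, and 18.5 ± 5.00 in larvae (SD, n = 80), where its rank was 19. CysRS-m had rank 2 in adults with 65.3 ± 12.9 CPM per kilobase and rank 22 in larvae with 12.7 ± 3.07. AspRS, whose counts may hold reads of overlapping genes, had rank 3 in adults with 46.7 ± 10.4 and rank 1 in larvae with 137 ± 28.9. MetRS-m was the lowest of the 32 at both stages, with 2.55 ± 0.760 CPM per kilobase in adults and 3.40 ± 0.684 in larvae. Its exon length of 4.31 kilobases merges 3 transcripts, for a protein of 582 residues, which lowers this value. GluRS-m was close in adults with 2.59 ± 1.03. Without division by length GluRS-m was the lowest, with means of 4.40 CPM in adults and 8.66 in larvae against 11.0 and 14.7 for MetRS-m.

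The other mitochondrial genes changed by less than 2-fold. GluRS-m, which charges glutamate tRNA and, with an amidotransferase, starts the route to mitochondrial glutamine tRNA, had 2.40, 3.79 and 10.5 CPM in adults, against 3.89, 7.64 and 22.9 CPM in larvae (log2 fold change -0.98, SE 0.05, adjusted p 7.3e-37). IleRS-m (-0.63), TyrRS-m (-0.62), AsnRS-m (-0.60), ArgRS-m (-0.55), ProRS-m (-0.52), SerRS-m (-0.49) and MetRS-m (-0.43) were lower in adults. LeuRS-m (-0.19) and AlaRS-m (-0.16) were lower by small amounts, with 6 and 10 lines in the other direction. PheRS-m, a single-chain enzyme unlike the cytoplasmic phenylalanine enzyme with its alpha and beta chains, was higher in adults. It had 46.4, 61.9 and 98.4 CPM in adults, against 32.8, 53.6 and 70.3 CPM in larvae (log2 fold change 0.27, SE 0.03, adjusted p 2.1e-13). AspRS-m had 55.2, 74.1 and 96.2 CPM in adults, against 49.1, 71.0 and 94.4 CPM in larvae (log2 fold change 0.08, SE 0.03, adjusted p 0.0048), and the ranges of the stages were nearly the same. With sequencing pools as replicates AspRS-m no longer passed, and AspRS-m and AlaRS-m did not pass without replicate 2.

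**Figure D2:**
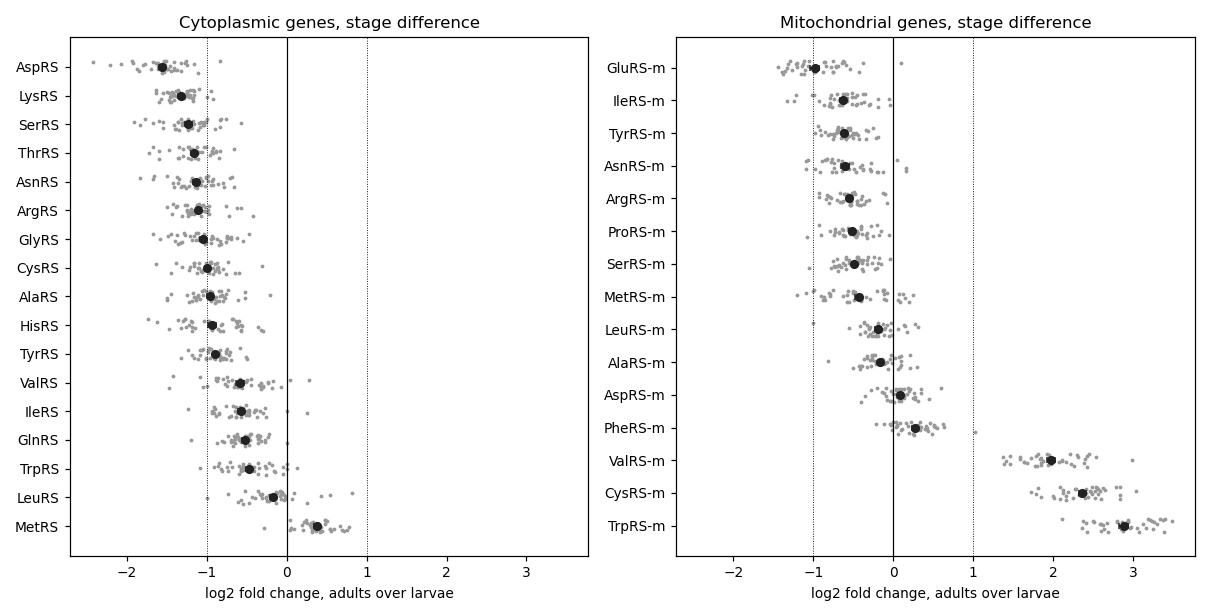
Log2 fold change of adults over larvae (horizontal axis) for each cytoplasmic gene (left) and mitochondrial gene (right). Black points are the fitted values with their SE, grey points are the 41 lines, and dotted lines mark a 2-fold change. Cytoplasmic genes lie to the left of 0 except MetRS, and TrpRS-m, CysRS-m and ValRS-m lie beyond the right dotted line in every line.

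The direction of the list medians held line by line. The median log2 fold change over the cytoplasmic genes was below 0 in 41 of 41 lines, between -1.45 in DGRP796 and -0.52 in DGRP535. Over the mitochondrial genes it was below 0 in 40 lines, between -0.65 in DGRP181 and 0.09 in DGRP897. Over all genes it was below 0 in 32 lines, between -0.08 in DGRP796 and 0.01 in DGRP142. The cytoplasmic minus mitochondrial difference of these medians was below 0 in 41 lines, with a median of -0.65.

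Ratios within a library give the balance between the forms for the same amino acid without any scaling factor. The cytoplasmic to mitochondrial ratio differed between stages for 10 of 12 pairs, by sign-flip permutation over 41 lines with p-values adjusted over the 12 pairs. In 9 of these pairs the ratio was lower in adults, and for methionine it was higher. For cysteine, CysRS per kilobase was 0.191 times CysRS-m in adults and 1.96 times CysRS-m in larvae, a log2 difference of -3.36 (SE 0.06, adjusted p 1.2e-05). For tryptophan, TrpRS was 0.265 times TrpRS-m in adults and 2.71 times in larvae, a log2 difference of -3.35 (SE 0.05, adjusted p 1.2e-05). For valine the ratio was 1.14 in adults and 6.62 in larvae, a log2 difference of -2.54 (SE 0.08, adjusted p 1.2e-05). For cysteine and tryptophan the mitochondrial form was thus the more abundant per kilobase in adults and the cytoplasmic form in larvae, in every line.

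For aspartate the ratio was 2.73 in adults and 8.53 in larvae (log2 difference -1.64, SE 0.04, adjusted p 1.2e-05). Here the counts given to the cytoplasmic gene made the change, and they may hold reads of the genes that overlap AspRS. Alanine (-0.80), serine (-0.74), asparagine (-0.57), arginine (-0.55) and tyrosine (-0.29) had smaller decreases in adults, each with an adjusted p of 1.2e-05, which comes from the smallest p that the permutations can give. For methionine the ratio was 11.2 in adults and 6.40 in larvae (log2 difference 0.81, SE 0.07, adjusted p 1.2e-05), and 39 of 41 lines were higher in adults. The long merged exon length of MetRS-m raises both ratios and does not enter their difference. The leucine ratio was 2.25 in adults and 2.23 in larvae (log2 difference 0.01, SE 0.04, adjusted p 0.724), and the isoleucine ratio was 8.34 in adults and 8.08 in larvae (log2 difference 0.05, SE 0.03, adjusted p 0.212). IleRS and IleRS-m fell by about the same amount, and LeuRS and LeuRS-m changed little. No setting tried changed a call among the 12 pairs.

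**Figure D3:**
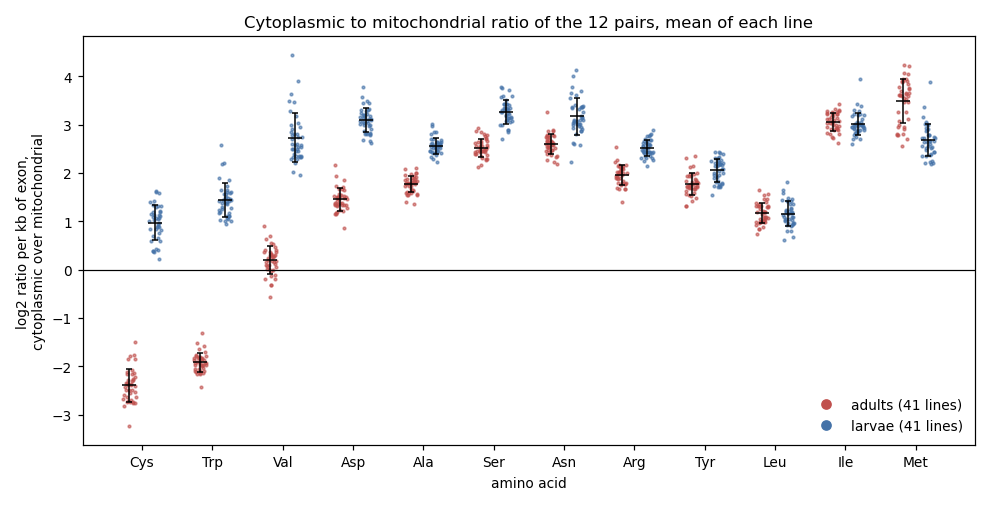
Log2 ratio per kilobase of exon of the cytoplasmic over the mitochondrial gene (vertical axis) for the 12 amino acids with both forms. Points are means of the 41 lines in adults and in larvae, and black bars give their mean and SD. The cysteine and tryptophan ratios lie below 0 in adults and above 0 in larvae.

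Other genes of the pathway, listed by name without regard to how they moved, were mostly lower in adults. All 7 synthetases and partners outside the naming rule were lower in adults. These were GluProRS, the fused glutamate and proline enzyme (log2 fold change -0.28), alpha-PheRS (-1.03), beta-PheRS (-1.04), the scaffold genes AIMP1 (-1.03), AIMP2 (-0.91) and AIMP3 (-0.98), and Slimp (-0.67), a mitochondrial relative of seryl tRNA synthetase. Of the genes listed for uncharged tRNA and for eIF2 and its kinases, 5 of 7 were lower in adults, 1 was higher and 1 did not pass. Of all genes 47.8% were lower in adults and 44.9% were higher. The eIF2 subunit genes eIF2alpha (-0.62), eIF2beta (-1.04) and eIF2gamma (-0.92), the eIF2 kinase PEK (-0.43) and crc (-0.22) were lower. Gcn2 was higher in adults in 41 of 41 lines, with 33.1, 54.2 and 93.1 CPM in adults against 27.2, 35.8 and 56.6 CPM in larvae (log2 fold change 0.55, SE 0.04, adjusted p 1.6e-28). Thor, the translation inhibitor 4E-BP, had a log2 fold change of -0.09 (SE 0.08, adjusted p 0.253).

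The carriers that bring charged tRNA to the ribosome split by paralog in both compartments. In the cytoplasm eEF1alpha1 was lower in adults, with 5147, 6971 and 11822 CPM against 6212, 12783 and 20745 CPM in larvae (log2 fold change -0.83, SE 0.05, adjusted p 3.8e-33). Its paralog eEF1alpha2 was higher, with 206, 285 and 496 CPM in adults against 39.3, 66.8 and 101 CPM in larvae (log2 fold change 2.12, SE 0.04, adjusted p 5.8e-85). Of the mitochondrial elongation factors mEFTu1 was lower in adults (log2 fold change -0.36, SE 0.05, adjusted p 2.6e-10) and mEFTu2 was higher (log2 fold change 0.84, SE 0.04, adjusted p 1.3e-45). The amidotransferase subunits GatA (-0.10) and GatB (-0.35) and the tRNA methyltransferase Nsun2 (-0.50) were lower, and GatC and Mt2 were not analysed here. For scale, and chosen after the values were seen, 83 of 85 cytoplasmic ribosomal protein genes were lower in adults, their median log2 fold change being -1.21, and 68 of 71 mitochondrial ones were lower with a median of -0.48.

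TrpRS-m, CysRS-m and ValRS-m varied between lines together with genes of the testis. Of 10 testis markers, 5 were in the table (S-Lap1, S-Lap3, S-Lap7 and loopin-1, related leucyl aminopeptidases of sperm that may share reads, and the tubulin gene alphaTub84D), and all 5 were higher in adults. Their summed level was 2827, 6010 and 9679 CPM as the lowest, median and highest adult library, against 79.6, 436 and 1169 CPM in larvae. The log2 fold change was 0.85 for alphaTub84D and 3.99 to 4.27 for the aminopeptidases. In its lowest larval library alphaTub84D had 61.6 CPM, and the aminopeptidases had 2.68 to 4.46 CPM in theirs. The lowest larval sum is thus mostly alphaTub84D. Over the 41 adult line means, TrpRS-m had an r of 0.969 with the summed markers (rho 0.966, 0.954 without the 2 farthest lines), the highest of the 7409 genes compared. ValRS-m had an r of 0.791 (rho 0.824) and CysRS-m an r of 0.710 (rho 0.817). For each of the 3 the permutation p of r and of rho was 1e-05, the smallest that 100000 permutations can give, and the adjusted p of r over 44464 relations was 0.000842.

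Without the 2 lines farthest from the marker median r was 0.767 for ValRS-m and 0.594 for CysRS-m, and with pool means removed it was 0.967 for TrpRS-m, 0.786 for ValRS-m and 0.713 for CysRS-m. In larvae TrpRS-m had an r of 0.635 with the same markers (rho 0.678) and ValRS-m an r of 0.719 (rho 0.596, permutation p 8e-05), with an adjusted p of 0.000842 for both r values, while CysRS-m had an r of 0.106 (rho 0.102, permutation p 0.509, adjusted p 0.760). DGRP153 had the lowest testis marker level of the adult lines, with 3486 CPM, and also the lowest adult levels of TrpRS-m, CysRS-m and ValRS-m. DGRP796 had the lowest testis marker level of the larval lines, with 99.1 CPM, and the lowest larval TrpRS-m and ValRS-m. A large part of such a low sum is alphaTub84D. Among the other synthetase genes, in adults r was 0.542 for TrpRS (permutation p 0.00024, adjusted p 0.00853) and rho 0.528 (permutation p 0.00047). For TyrRS r was -0.517 (permutation p 0.00044, adjusted p 0.0131) and rho -0.463 (permutation p 0.0026). In adults 4 of 32 genes were thus positively related to the markers and 1 negatively, where 9.21% and 2.67% of all genes were. In larvae 2 were positively related, where 4.02% of all genes were, and AlaRS, AspRS, IleRS, LeuRS and ValRS were negatively related, with r between -0.528 and -0.472 (permutation p 0.00059 to 0.00221, adjusted p 0.0161 to 0.0382) and rho between -0.512 and -0.326 (permutation p 0.00084 to 0.0375), where 0.823% were. Without the 2 larval lines farthest from the marker median these 5 values of r lay between -0.398 and -0.201.

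No synthetase gene passed for roX1, a noncoding RNA of the male dosage compensation complex and the 1 marker present of 2 for males, which had 247, 784 and 1473 CPM in adults against 47.8, 230 and 742 CPM in larvae. For TrpRS-m, CysRS-m and ValRS-m its r in adults was between -0.279 and -0.109, with permutation p-values of 0.0769 to 0.493 and adjusted p-values of 0.301 to 0.749. Of 17 genes listed as female germline markers 4 were present, namely orb, exu, BicD and tud, all higher in adults. Their summed levels were 1300, 2052 and 2824 CPM in adults against 367, 558 and 891 CPM in larvae. Mean adult levels were 1096 CPM for exu, 547 for tud, 337 for orb and 100 for BicD. Whether these genes mark the female germline alone was not tested. With them TrpRS-m had an r of 0.687 (rho 0.697) and ValRS-m an r of 0.677 (rho 0.684) in adults, each with a permutation p of 1e-05 and an adjusted p of 0.000842 for r. CysRS-m did not pass in adults (r 0.418, rho 0.458, permutation p 0.00677 and adjusted p 0.0774 for r). In larvae 3 genes passed. The r was 0.605 for TrpRS-m (rho 0.541, permutation p 5e-05, adjusted p 0.00273) and 0.493 for MetRS (rho 0.346, permutation p 0.00113, adjusted p 0.0246), and it was -0.508 for MetRS-m (rho -0.433, permutation p 0.00074, adjusted p 0.0187). Without the 2 larval lines farthest from the marker median r was 0.302 for MetRS and -0.344 for MetRS-m. The share of all genes that pass for roX1 or for these germline markers was not computed. In whole animals more cells of a type and more RNA per cell cannot be told apart, and the part of testis or germline content in the stage differences of TrpRS-m, CysRS-m and ValRS-m was not tested. The stages also differed in other tissue markers. Of 5 muscle markers 4 were lower in adults, with summed levels of 3334, 5164 and 8991 CPM in adults against 5846, 15188 and 30476 CPM in larvae. Of 5 midgut markers 3 were lower and 2 higher in adults, with 1950, 5208 and 9830 CPM in adults against 8333, 25155 and 54676 CPM in larvae. The 1 fat body marker present of 6, apolpp, was lower, with 1176, 3841 and 7208 CPM in adults against 2379, 5907 and 12993 CPM in larvae. Their part in the lower cytoplasmic synthetase levels was not tested.

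**Figure D4:**
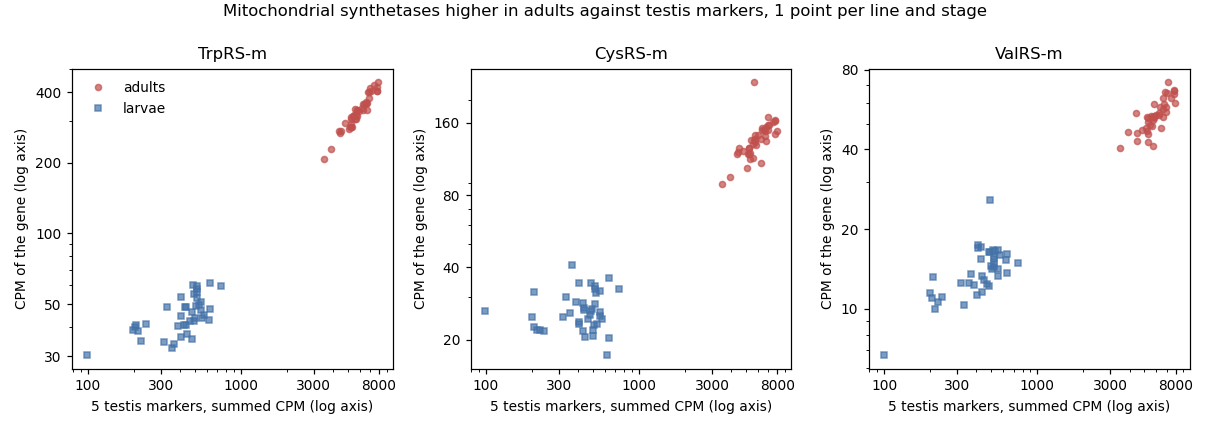
Level of TrpRS-m, CysRS-m and ValRS-m (CPM, vertical log axis) against the summed level of 5 testis markers (CPM, horizontal log axis). Each point is the mean of 1 line at 1 stage. Adult points lie on a rising band, tightest for TrpRS-m with r 0.969, and larvae lie at lower values on both axes.

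Differences between lines were read within each stage. The edgeR test over all line coefficients called 24 of 32 genes in adults, 12 of 17 cytoplasmic and 12 of 15 mitochondrial, where 68.2% of all genes passed. In larvae it called 12, of which 11 were cytoplasmic and 1, GluRS-m, was mitochondrial, where 46.8% of all genes passed. Heritability, the share of the variance of log2 CPM that lies between lines, had a median of 0.402 in adults and 0.329 in larvae for the cytoplasmic genes. For the mitochondrial genes the medians were 0.457 in adults and 0.157 in larvae, beside 0.390 and 0.286 for all genes. The median SD between lines of the mitochondrial genes was 0.171 log2 units in adults and 0.0976 in larvae, and that between replicates was 0.175 in adults and 0.244 in larvae.

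MetRS-m had the highest heritability of the adult set, 0.807 ± 0.0520 (jackknife SE over lines). The lowest adult line was DGRP360, with 6.32 and 7.80 CPM in its replicates, and the highest was DGRP703, with 19.7 and 17.4 CPM. The replicates of these lines differed far less than the lines did, and the edgeR adjusted p for line was 1.1e-10. In larvae its heritability was 0.0817 ± 0.179, and line differences did not pass the edgeR test (adjusted p 0.394). MetRS-m lies at chr3R:14249043-14259991. Adult heritability was 0.627 ± 0.118 in PheRS-m and 0.594 ± 0.107 in LeuRS-m, and the line means spanned 1.89-fold in PheRS-m and 1.82-fold in LeuRS-m. CysRS-m was 2.65-fold higher in DGRP486, with 239 and 234 CPM, than in DGRP153, with 91.4 and 86.8 CPM. The line means of CysRS-m were 7.89 log2 CPM in DGRP486 and 7.41 in the next highest line.

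GluRS-m, with an adult heritability of 0.762 ± 0.0901, split the adult lines into 2 sets. In DGRP357, DGRP239, DGRP897, DGRP370 and DGRP879 the 10 adult libraries had 6.92 to 10.5 CPM with a median of 8.52, and in the other 36 lines the 72 adult libraries had 2.40 to 5.33 CPM with a median of 3.74. The gap between the sets of line means was 0.64 log2 units. These lines were picked out by their adult values, so the difference in adults is a description. In larvae, whose values were not used, the same lines were high as well. Their larval libraries had 12.0 and 12.2 CPM in DGRP357, 14.7 and 16.4 in DGRP239, 16.7 and 22.9 in DGRP370, 15.0 and 15.0 in DGRP879, and 17.1 and 3.89 in DGRP897. The median of the 70 larval libraries of the other lines was 7.47 CPM.

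Of the 3 larval exceptions, 2 are libraries whose labels did not match. The low larval library labelled DGRP897 replicate 2 is the one most like DGRP882, whose own replicate 1 had 7.62 CPM. One of the high libraries outside the 5 lines, at 16.3 CPM, is that labelled DGRP911 replicate 2, which was most like DGRP897. Its replicate 1 had 4.84 CPM. The other was DGRP783 replicate 2 with 16.6 CPM, beside 6.45 CPM in its replicate 1, and its label matched. GluRS-m lies at chr3L:16415292-16417177 on the minus strand, 171 bases downstream of TyrRS on the same strand. The 2 genes had an r of 0.254 over adult line means and 0.244 over larval ones.

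**Figure D5:**
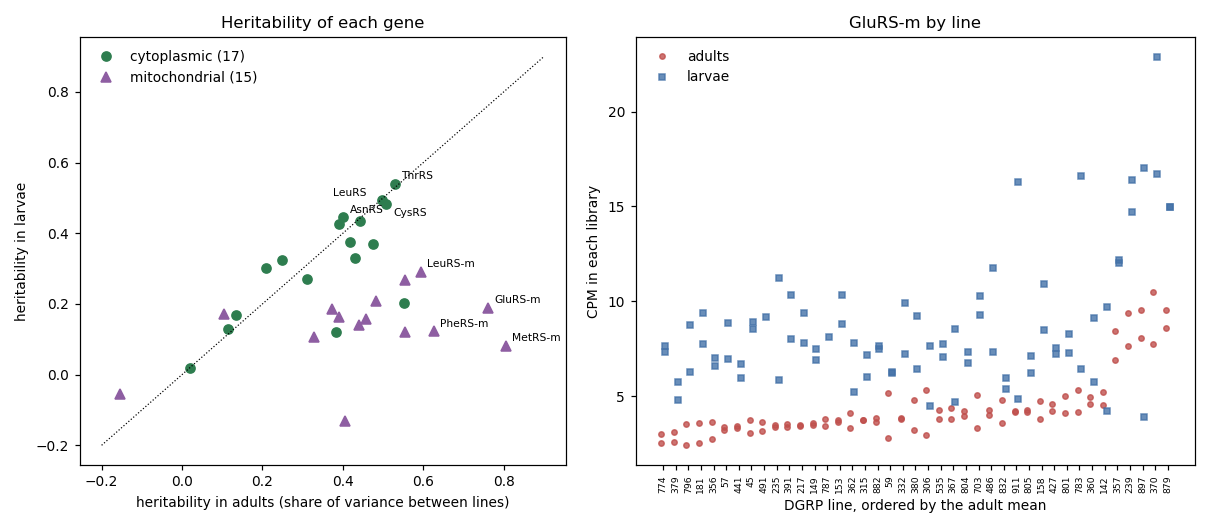
Left, heritability of each gene in adults (horizontal axis) against larvae (vertical axis), whose estimates can fall below 0, with the dotted line of equality. Right, GluRS-m (CPM, vertical axis) in each library of adults and larvae, with lines ordered by the adult mean. Mitochondrial genes lie mostly below the line of equality, and the 5 lines at the right hold adult libraries of 6.92 to 10.5 CPM.

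In larvae the highest heritabilities were cytoplasmic. ThrRS had 0.539 ± 0.162, with 448 and 392 CPM in DGRP153 and 173 and 152 CPM in DGRP239, a 2.58-fold span of line means (adjusted p 0.000225). LeuRS had 0.493 ± 0.115, CysRS 0.484 ± 0.251 and AsnRS 0.445 ± 0.136. The CysRS value rests in part on DGRP805, whose larvae had 34.4 and 30.8 CPM with a line mean of 5.03 log2 CPM where the median line had 5.88, and without it the heritability was 0.255. ValRS spanned 3.72-fold, the most of the cytoplasmic genes, with its highest larval level in DGRP491 at 214 CPM, in the 1 library left for that line.

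Single lines carry part of the larval result. DGRP491, with a single larval library, had the highest larval level for 11 of the 32 genes and DGRP796 for 5. Without DGRP491 the larval count of genes differing between lines was 8, where 44.3% of all genes passed. Without DGRP796 it was 7, where 43.7% passed, with AlaRS, AspRS, GlnRS, GlyRS, IleRS and TrpRS no longer passing. With the sequencing pool as a factor it was 5, namely CysRS, LeuRS, ThrRS, GluRS-m and LeuRS-m, where 30.9% of all genes passed. CysRS, LeuRS and ThrRS passed in larvae under every setting tried. In adults DGRP357 had the highest level for 8 genes, 6 of them cytoplasmic, and its replicates were far apart for some. AspRS had 116 CPM in DGRP357 replicate 1 and 251 CPM in replicate 2. Without DGRP357 the adult count was 26, where 68.3% of all genes passed.

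The size of the stage difference itself varied between lines for 9 of 32 genes by the edgeR test of the line-by-stage interaction, where 43.1% of all genes passed. They were 7 cytoplasmic and 2 mitochondrial genes. LeuRS (adjusted p 0.00121) had a log2 difference of adults over larvae of -0.999 in DGRP491 and 0.82 in DGRP357. MetRS-m (adjusted p 0.0004) ranged from -1.20 in DGRP796 to 0.25 in DGRP379. AspRS (adjusted p 0.0146) ranged from -2.42 in DGRP796 to -0.83 in DGRP357, so every line kept the direction. The others were IleRS, AlaRS, CysRS, ArgRS, AsnRS and ValRS-m. The extreme lines were often DGRP357, DGRP491 or DGRP796, of which DGRP491 has a single larval library. Without all 3 of them 2 genes passed, ArgRS and MetRS-m, where 36.7% of all genes did. Without DGRP796 alone 6 passed, where 41.6% of all genes did.

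The line means of the stages were correlated for 5 of 32 genes, where 17.2% of all genes passed, by permutation over 41 lines with p-values adjusted over all genes. For ThrRS r was 0.613 (permutation p 2e-05, adjusted p 0.000636) and rho 0.454 (permutation p 0.00298), and r was 0.490 without the 2 farthest lines. For ProRS-m r was 0.545 (permutation p 0.0003, adjusted p 0.0046) and rho 0.479 (permutation p 0.00172), and r was 0.442 without the 2 farthest lines. For LeuRS-m r was 0.473 (permutation p 0.00155, adjusted p 0.0149) and rho 0.545 (permutation p 0.00021), and r was 0.550 without the 2 farthest lines. For these 3 genes the relation was also present among the lines that form the main cluster, left after removing lines that stand apart in a plot of the stages against each other, with r of 0.495 over 32 lines for ThrRS (permutation p 0.00428), 0.518 over 35 for ProRS-m (permutation p 0.00148) and 0.646 over 36 for LeuRS-m (permutation p 7e-05).

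The remaining correlations, of GluRS-m and TyrRS, were weaker by rho and did not pass within the main cluster of lines. For GluRS-m r was 0.672 (permutation p 3e-05, adjusted p 0.000849) and rho 0.301 (permutation p 0.0553), and r was 0.490 without the 2 farthest lines. Over the 35 lines left when those standing apart are removed r was -0.0324 (permutation p 0.854). The lines removed there include DGRP357, DGRP239, DGRP897, DGRP370 and DGRP879, the high adult set, so that value describes the other lines only. For TyrRS r was 0.488 (permutation p 0.00142, adjusted p 0.0139) and rho 0.396 (permutation p 0.011), and over the 33 lines of its main cluster it was 0.228 (permutation p 0.202). Over the 32 genes r was above 0 in 30, where it was above 0 in 6216 of all 7414 genes. The median r was 0.217 beside 0.194 over all genes. TrpRS-m and ValRS-m had r of 0.0898 and 0.0476 between stages, and neither passed. With 1 replicate per line 1 or 2 of the 32 genes passed, where 11.1% and 8.52% of all genes did in that order.

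Within a stage, cytoplasmic genes tended to be high or low in the same lines. Over the 136 pairs of cytoplasmic genes the median r across 41 line means was 0.258 in adults and 0.427 in larvae. Over the 105 pairs of mitochondrial genes it was 0.0167 in adults and 0.154 in larvae, and over all gene pairs it was near 0. These are descriptions, and the points of a pair share libraries and scaling. In adults the mitochondrial set was divided. TrpRS-m, CysRS-m and ValRS-m had r of 0.551 to 0.843 among themselves, a median r of -0.262 with the other mitochondrial genes and of -0.214 with the cytoplasmic genes. The other 12 mitochondrial genes had a median r of 0.142 among themselves and 0.176 with the cytoplasmic genes. In larvae the strongest pairs were cytoplasmic, with IleRS and LeuRS at 0.774 and SerRS and ValRS at 0.751.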

How the data were processed

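The authors deposited 1 table of read counts per gene, not normalized, with 7414 genes and 164 columns. Per the labels' protocols, polyA RNA of whole animals was used. Per the submitters' processing notes, FastQC, Trimmomatic and STAR were used with the BDGP6 (dm6) genome. Tool versions, the counting program and its strand setting are not given in the sources used here. In every library each gene had at least 11 counts, so rarer genes were not analysed here. Depth differed between libraries, and intervals and SEs do not cover differences between pools.

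The counts were scaled with TMM factors and tested with the quasi-likelihood test of edgeR 4.0.16 (limma 3.58.1, R 4.3.3) on 162 libraries, with line as a block for stage, and with adjusted p under 0.05 over all genes. The filter of 1 CPM in 41 libraries of a stage removed 0 genes. The 2-fold test used a log2 fold of 1. Line means were of log2 CPM with a prior count of 2, and permutation tests used 100000 draws, two-sided. The fits were tested on simulated data with known changes. DESeq2 1.42.0 was an alternative. Same-numbered replicates of the stages did not deviate together. Coordinates, exon lengths and overlaps are from the Ensembl BDGP6 annotation. The genes named are all 32 of the naming rule and the fixed pathway and marker lists. The members and lists were chosen with earlier results of these data known.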

Additional observations from a re-analysis of the deposited data

Results flagged for a closer look

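The stage difference differed between lines for 9 of 32 synthetase genes, where 43.1% of all genes passed. The test was the edgeR quasi-likelihood test of the line-by-stage interaction with Benjamini-Hochberg adjustment over all genes. The adjusted p was 0.0004 for MetRS-m, 0.00121 for LeuRS, 0.00765 for IleRS, 0.00843 for AlaRS, 0.0146 for AspRS, 0.015 for CysRS, 0.0185 for ArgRS, 0.0232 for AsnRS and 0.0288 for ValRS-m. The log2 difference of adults over larvae was lowest in DGRP491 for IleRS (-1.23) and CysRS (-1.63), where larvae rest on a single library. It was highest in DGRP357 for IleRS (0.25) and in DGRP805 for CysRS (-0.30). It ran from -1.50 in DGRP796 to -0.20 in DGRP357 for AlaRS and from -1.83 in DGRP796 to -0.66 in DGRP357 for AsnRS. For ArgRS it ran from -1.50 in DGRP360 to -0.42 in DGRP911, and for ValRS-m from 1.37 in DGRP491 to 2.98 in DGRP796. Without DGRP357, DGRP491 and DGRP796, 2 genes passed, ArgRS and MetRS-m, where 36.7% of all genes did.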

How the results depend on the processing

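The stage calls held for all 32 genes under DESeq2 size factors, the DESeq2 Wald test, all 164 columns, no filter, no block, and without the 3 larval libraries whose labels did not match. The replicate block gave 32 genes and changed no call, and the numbers do not pair the samples, since 14 of 39 lines had a correlation over 0.1 between same-numbered libraries (lowest -0.371, median 0.0492, highest 0.304). AspRS-m lost its call with a mean of at least 10 CPM, with pools as replicates and without replicate 2, and AlaRS-m without replicate 2. The 12 pair calls were the same in all 6 alternatives run. The count of genes differing between lines in larvae was 12 as reported. It was 7 with all 164 columns, 7 without DGRP796, 7 without DGRP357, DGRP491 and DGRP796, and 5 with pool as a factor. The share of all genes was 42.4%, 43.7%, 40.6% and 30.9% in that order, beside 46.8% as reported. For the cytoplasmic genes the count of 11 became 6, 6, 6 and 3 in the same order, and 7 without DGRP491. For the mitochondrial genes the count of 1 became 0 with a mean of at least 10 CPM, where GluRS-m was not tested, and 2 with pool as a factor and without the 3 larval libraries. Without those 3 libraries GlnRS lost its larval line call (adjusted p 0.0625 with edgeR), LeuRS-m gained one (0.0234) and SerRS-m gained an adult one (0.0356). With roX1 as a covariate 13 genes differed between lines in larvae, where 48.0% of all genes did. There GluRS-m lost its call (0.0564) and ArgRS (0.0370) and ValRS-m (0.0367) gained one. In adults 29 differed with this covariate, where 80.7% of all genes did, beside 68.2% as reported. ArgRS, GlyRS, LysRS, SerRS and SerRS-m gained an adult call. Interactions fell to 2 genes without the 3 lines, 1 cytoplasmic and 1 mitochondrial, where 36.7% of all genes passed. The cytoplasmic count was 4 with all 164 columns, and the mitochondrial count was 1 without DGRP796. Of all genes 38.1% and 41.6% passed in these settings. Genes correlated across stages numbered 8 with all 164 columns, 11 without the 3 lines, 3 with Spearman rho, and 1 to 2 with a replicate left out. Of all genes 19.0%, 17.4% and 10.5% passed in these settings, and 11.1% without replicate 1 and 8.52% without replicate 2. The cross-stage r of GluRS-m was -0.0324 among its main cluster of lines. Apart from those named, the causes were not tested. The settings that leave out lines or use the main cluster were chosen after seeing the data. Genes with few reads, such as GluRS-m at 2.40 CPM in its lowest adult library, are limited by depth.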

Other observations

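The averages of the synthetase sets also moved together between lines. The mean log2 CPM of the 17 cytoplasmic genes had an r of 0.582 with that of the 15 mitochondrial genes over adult line means and 0.541 over larval ones, and 0.443 in adults without DGRP357 and 0.458 in larvae without DGRP491. Between stages the cytoplasmic mean had an r of 0.0326 and the mitochondrial mean 0.205. Among pathway genes outside the naming rule, GluProRS had an r with the cytoplasmic mean of 0.737 in adults and 0.778 in larvae, higher than 99.96% and 99.811% of all genes. The eIF2 kinase gene PEK had 0.687 in adults and 0.775 in larvae. The gene eIF2beta, a subunit of the initiation factor, had 0.415 in adults and 0.806 in larvae, while AIMP1, AIMP2 and AIMP3, scaffolds of the multisynthetase complex, had values between -0.191 and 0.307. These are descriptions over 41 lines whose points share libraries and scaling.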
